A study of Mus musculus with 4 samples.

Results

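The conjugating detoxification enzymes described here are the UDP-glucuronosyltransferases (UGT), the glutathione S-transferases (GST), the membrane-bound glutathione S-transferases (MGST) and the sulfotransferases (SULT). They were taken by symbol, as every gene whose name starts with Ugt1, Ugt2, Ugt3, Gsta, Gstm, Gstp, Gstt, Gsto, Gstk, Gstz, Mgst or Sult, and 53 of the 15123 genes measured qualified. There were 18 UGT genes, 20 cytosolic GST genes (Gstk1, a mitochondrial and peroxisomal enzyme, is counted among them), 3 MGST genes and 12 SULT genes, read by 84 probes. Each gene's value is a log2 ratio of spheroid over organoid RNA on a 2-colour array, where 1 unit is a doubling.

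Such enzymes carry out the second phase of detoxification. UGTs attach glucuronic acid to drugs, bilirubin, steroids and bile acids, GSTs attach glutathione to reactive compounds, and SULTs attach sulfate to phenols and steroids. In the intestine these enzymes are known from absorptive enterocytes, where they act on compounds taken up from the gut lumen before they reach the blood. Many of them are induced by the oxidative stress factor NRF2 or by drug-sensing nuclear receptors.

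The samples were spheroid and organoid cultures grown from small intestine of single wild-type CD1 mice inside Matrigel (extracellular matrix proteins) in medium containing Noggin, EGF, R-spondin1 and fetal bovine serum. Spheroids are hollow fetal-type cysts and organoids bud like crypts. Both types were picked out of each animal's culture and carried through 3 passages, and no sort by a marker is described. The 4 pairs came from 2 fetuses of embryonic day 16 (E16), 1 fetus at day 18 (E18) and 1 pup at day 0 after birth (P0). The E18 and P0 pairs together are called the later pairs. Positive values are read as likely higher in spheroids, since the spheroid comes first in the sample titles and the numerator is stated nowhere in the sources used here. If the ratio ran the other way, every direction below would turn.

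A ratio carries no level, so the labelled cell type could not be checked against its markers, and fewer cells of a type cannot be told apart from less RNA per cell. Of 12 mesenchyme markers, 11 lay within the range of the negative control probes in all 4 pairs, against 48.5% of all genes. So did 5 of 6 leukocyte, 5 of 6 endothelial and 2 of 6 tuft cell markers. In 3 of the 6 tuft cell markers both later pairs lay below both E16 pairs, against 24.8% of all genes. The mesenchyme exception, Vim, had -0.22 and -0.05 in the E16 pairs, -0.90 in the E18 pair and -0.61 in the P0 pair. The endothelial exception, Tek, was above 0 in all 4 pairs, with a mean of 0.16. The exception among leukocyte markers, the lysozyme gene Lyz2, was lower in spheroids at -1.71 ± 0.35 (SD, n = 4, limma, adjusted p = 0.0232). Between 4.50% and 6.16% of all genes had a ratio above 1 in size in a pair. Pearson's r over the 15123 genes, which share their libraries and are no replicates, was 0.916 for the E16 pairs with each other, 0.387 and 0.316 for the E18 pair with them, 0.650 and 0.585 for the P0 pair with them and 0.622 for the P0 with the E18 pair.

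The main pattern lay between stages. In 41 of the 53 genes both later pairs had a higher ratio than both E16 pairs, against 25.9% of all genes, and in 2 genes both had a lower one, against 24.8% of all genes. Some of these were genes that stayed within the range of the negative control probes. Among the 41 members that left that range in at least 1 pair, the higher count was 34. The share among all genes that left the range was not counted, and the 25.9% includes genes within it. Without the Ugt1 genes, which share exons, the higher count was 33 of 45 members, against the same 25.9% of all genes. The median of the members was 0.52 in the E18 pair and 0.18 in the P0 pair, against -0.43 and -0.36 in the E16 pairs, while the median of all genes lay between -0.0035 and 0.003 in each of the 4 pairs. In 19 members both E16 ratios were below 0 and both later ratios above 0, a split that 8.45% of all genes had. The opposite split was seen in 0 members and in 8.33% of all genes. Of these 19, 18 had at least 1 ratio outside the range of the negative control probes, and Ugt2a1 had none.

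**Figure D1:**
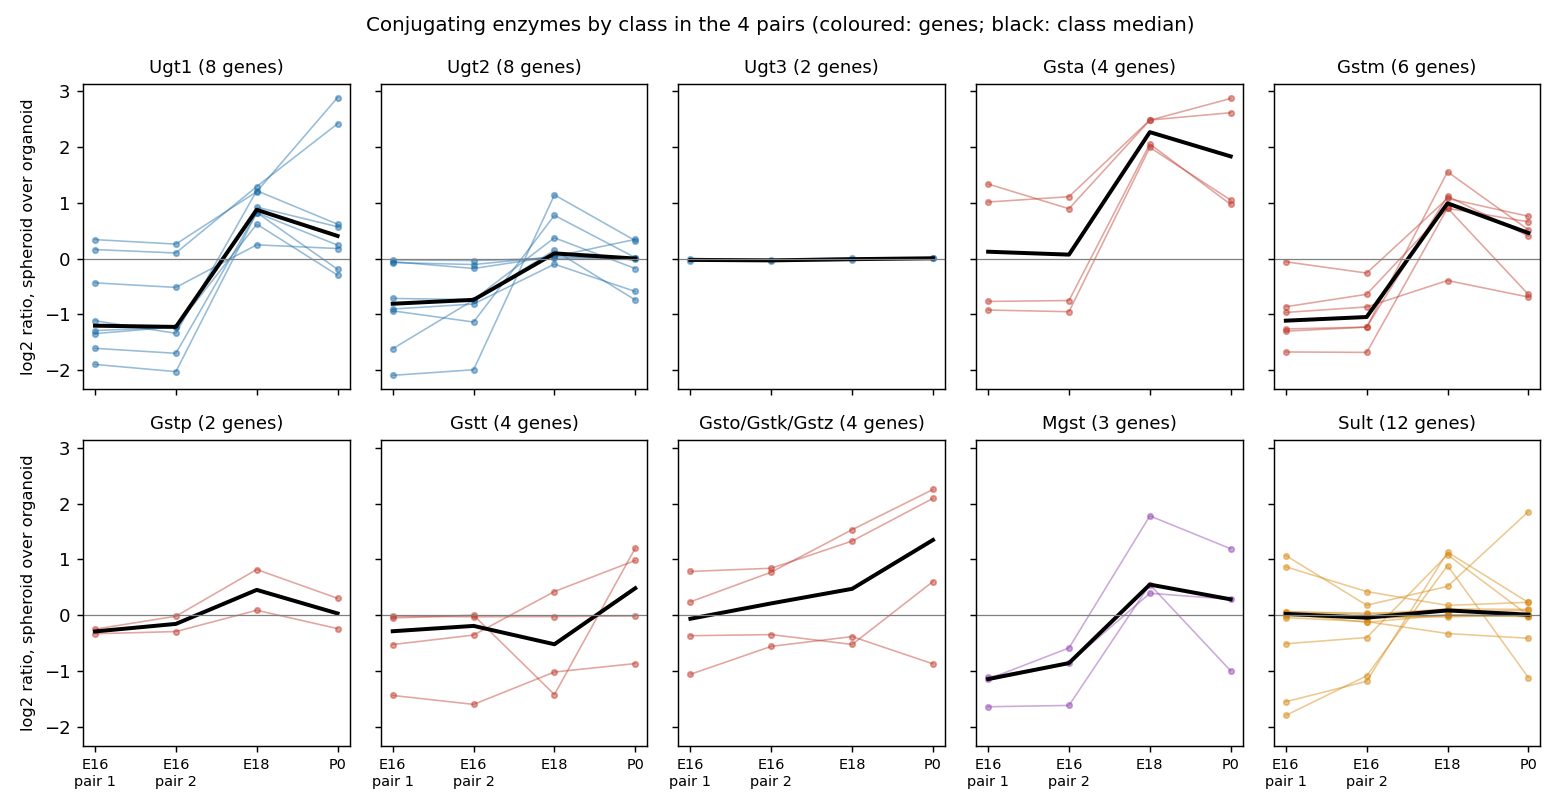
Log2 ratio of spheroid over organoid (vertical axis) in the 4 pairs (horizontal axis) for the genes of each enzyme class; each coloured line is 1 gene, the black line is the class median, and lines join values of different animals. The Ugt1 median was 0.88 in the E18 pair and 0.41 in the P0 pair, against -1.20 and -1.22 in the E16 pairs, and the Ugt3 genes lay at 0 throughout.

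The stage difference was tested in limma as the mean of the later pairs minus the mean of the E16 pairs, 2 pairs against 2, with Benjamini-Hochberg adjustment over all genes. With this design 0 members, and 0.0% of all genes, passed an adjusted p of 0.05. At an unadjusted p under 0.05, 25 members had a higher ratio in the later pairs, against 9.48% of all genes, and 1 (Sult1a1) a lower one, against 9.59% of all genes. At an adjusted p under 0.1 there were 8 members, all with the higher ratio in the later pairs, against 1.73% of all genes: Gsta3, Ugt1a10, Mgst3, Gstm1, Ugt1a2, Ugt1a9, Ugt2b5 and Ugt1a7c. The difference was at least 1 log2 unit in 25 members, against 3.15% of all genes, and -1 or less in 0 members, against 1.28% of all genes.

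The later group holds 1 animal per stage, and the count depended on each. Without the E18 pair 18 members passed an adjusted p of 0.05, all with the higher ratio in the later pair, against 1.83% of all genes. Without the P0 pair 27 passed, 26 of them higher in the later pair, against 5.64% of all genes, and 1 lower, against 4.57%. In both of these fits the spread came from the 2 E16 pairs alone. The 2 sets shared 16 members, of which 15 had the same sign; the exception, Gstt2, had a ratio of -1.42 in the E18 pair and 1.20 in the P0 pair.

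**Figure D2:**
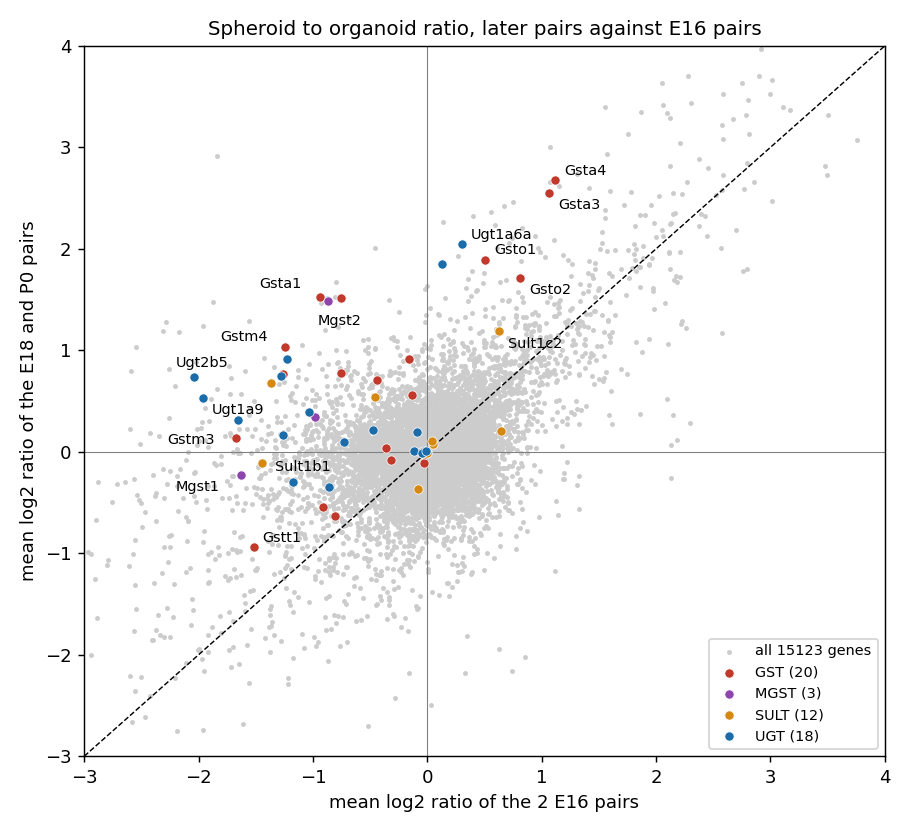
Mean log2 ratio of the later pairs (vertical axis) against that of the E16 pairs (horizontal axis) for all genes in grey and the enzyme families in colour; axes run from -3 to 4, so that a few genes lie outside, and the dashed line marks equal ratios. The enzymes lie mostly above the line, with Gsta1 at 1.52 in the later pairs against -0.94 in the E16 pairs.

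Most markers of absorptive enterocytes also had a higher ratio in the later pairs. In the P0 pair they differed from the enzymes, with 18 of 19 below 0, against 18 of 53 enzymes and 7446 of all 15123 genes. The median of 19 enterocyte markers was 0.24 in the E18 pair and -0.93 in the P0 pair, against -2.24 and -2.55 in the E16 pairs. In 14 of them both later pairs lay above both E16 pairs, against 25.9% of all genes, and the median difference was 1.56, against 0.90 for the 53 enzymes. These medians are not alike in content, since 12 of the 53 enzymes and 1 of the 19 markers lay within the negative control range. For the 41 enzymes outside it the median difference was 1.39. Among the markers, the fatty acid binding protein Fabp1 had ratios of -2.77 and -2.99 in the E16 pairs, -0.20 in the E18 pair and -0.38 in the P0 pair. Of the 19 markers, 8 were below 0 in all 4 pairs, against 14.4% of all genes, and 2 of these passed the test over the 4 pairs (Slc5a1 and Dpp4, both lower in spheroids, against 1.34% of all genes). Gastric epithelium markers, 10 genes, had medians of 1.08 and 1.37 in the E16 pairs, 0.14 in the E18 pair and 3.27 in the P0 pair, with 0 of 10 past the threshold and 4 at an unadjusted p under 0.05 in limma, against 20.9% of all genes. What part either marker list has in the enzyme ratios was not tested.

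The Ugt1 genes of chromosome 1 form a single locus. Each has a first exon of its own, and all splice to the same downstream exons, so a probe in the shared part reads the whole locus. Of the 8 genes measured, 8 had a higher ratio in both later pairs than in both E16 pairs, against 25.9% of all genes. Their differences ran from 0.69 to 2.49. Ugt1a9 had ratios of -1.90 and -2.03 in the E16 pairs, 0.82 in the E18 pair and 0.24 in the P0 pair, a difference of 2.49 ± 0.24 (SE, limma, adjusted p = 0.0923). Ugt1a10 had ratios of -1.34 and -1.22 in the E16 pairs, 0.92 in the E18 pair and 0.57 in the P0 pair. For Ugt1a7c the ratios were -1.11 and -1.34 in the E16 pairs, 1.22 in the E18 pair and 0.62 in the P0 pair. In each of these 3 genes the E16 pairs lay below 0 and the later pairs above it.

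Ugt1a1, the enzyme that conjugates bilirubin, had ratios of -1.61 and -1.70 in the E16 pairs, 0.83 in the E18 pair and -0.19 in the P0 pair. In this average of 2 probes the E18 pair thus stood alone above 0, while in the P0 pair the single probes had -1.03 and 0.65. Ugt1a5 followed the same order, with -1.29 and -1.23 in the E16 pairs, 0.62 in the E18 pair and -0.30 in the P0 pair. Its 4 probes ran from -0.96 to 0.57 in the P0 pair. Ugt1a2, an average of 3 probes of which 2 lay near 0, had -0.43 and -0.52 in the E16 pairs, 0.25 in the E18 pair and 0.18 in the P0 pair. With 1 probe per gene its stage difference was 1.90 in place of 0.69, and that of Ugt1a5 was -0.011 in place of 1.42.

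Ugt1a6a and Ugt1a6b, close copies whose enzymes conjugate small planar phenols, differed from the other 6 in being above 0 in all 4 pairs. Ugt1a6a had ratios of 0.34 and 0.26 in the E16 pairs, 1.20 in the E18 pair and 2.89 in the P0 pair, the highest value of any member in that pair. Ugt1a6b had 0.16 and 0.10 in the E16 pairs, 1.29 in the E18 pair and 2.42 in the P0 pair. Over the 4 pairs they averaged 1.17 ± 1.22 and 0.99 ± 1.10 (SD, n = 4), with adjusted p of 0.319 and 0.345 in limma.

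Single probes showed that these gene averages mix several patterns. All 4 members whose probe means lay more than 1 log2 unit apart were Ugt1 genes, namely Ugt1a5, Ugt1a6a, Ugt1a6b and Ugt1a9. The 26 Ugt1 probes fell into 4 sets, with bounds set after their values were seen. The first set held 13 probes and at least 1 of each of the 8 genes. Its ratios ran from -1.69 to -1.07 and from -1.75 to -0.73 in the E16 pairs, from 0.56 to 1.36 in the E18 pair and from 0.47 to 0.72 in the P0 pair. A probe of Ugt1a6a and a probe of Ugt1a6b belonged to it.

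The other 6 probes of Ugt1a6a and Ugt1a6b were above 0 in every pair, from 0.30 to 1.34 and from 0.41 to 1.29 in the E16 pairs, from 0.91 to 1.98 in the E18 pair and from 3.09 to 3.92 in the P0 pair. In the P0 pair they lay above all 20 other Ugt1 probes. That follows from the sorting, since this set and the next were defined by the P0 ratio alone. A further 4 probes, of Ugt1a1, Ugt1a5 and Ugt1a9, ran from -2.91 to -2.0 and from -3.05 to -1.68 in the E16 pairs, overlapping the first set in the second of them, with 0.72 to 0.89 in the E18 pair and -1.03 to -0.48 in the P0 pair. The last 3, of Ugt1a2 and Ugt1a5, stayed between -0.11 and 0.07. In the P0 pair, probes of the same locus therefore ran from -1.03 to 3.92. The exon that each probe matches was not analysed here.

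**Figure D3:**
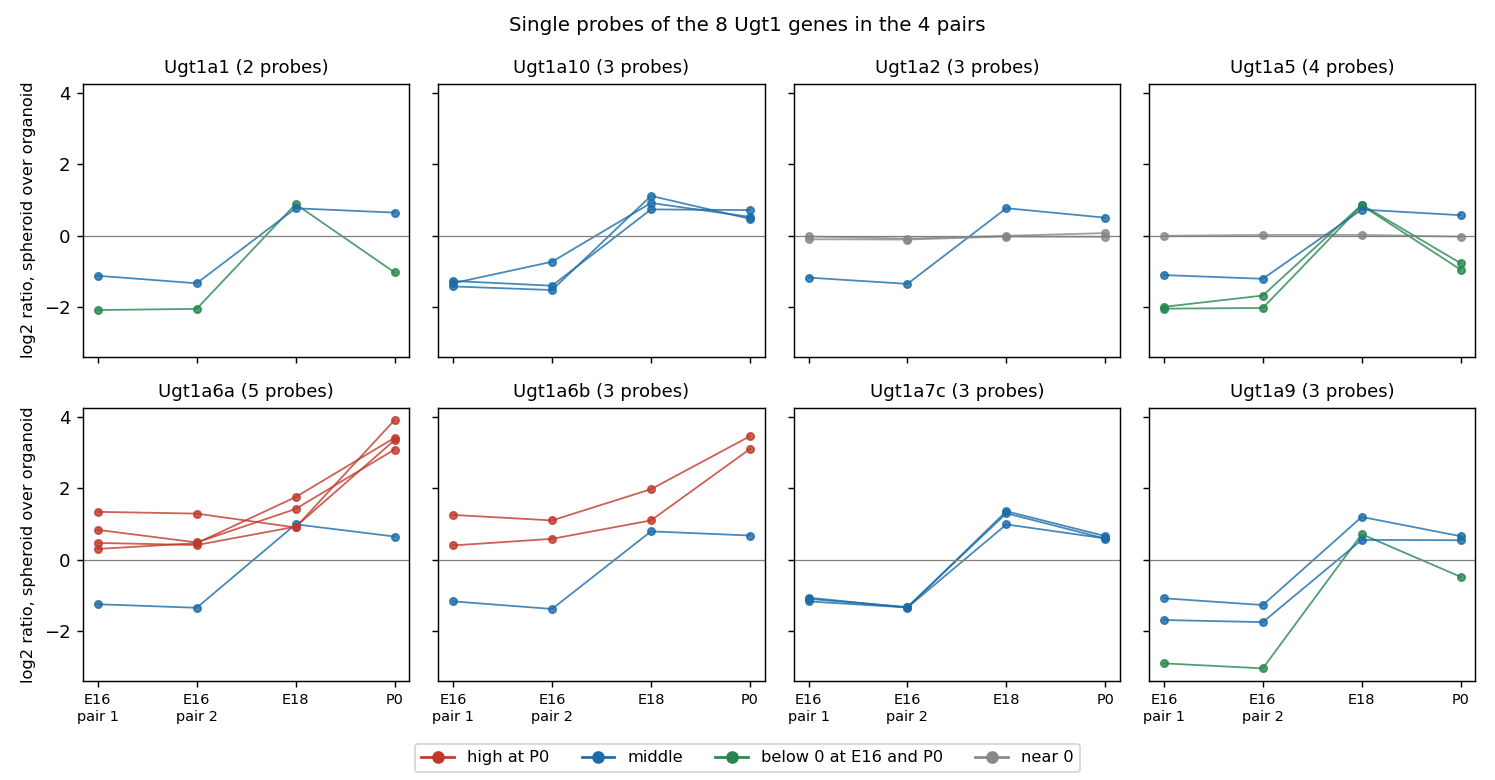
Log2 ratio of spheroid over organoid (vertical axis) in the 4 pairs (horizontal axis) for each single probe of the 8 Ugt1 genes; each line is 1 probe, coloured by the 4 sets described in the text. Red probes of Ugt1a6a and Ugt1a6b reach 3.09 to 3.92 in the P0 pair, where the 13 blue probes found in every gene lie between 0.47 and 0.72. The P0 ratio was used to form these sets, so their separation in that pair is no separate result.

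Start-site sequences were examined because members moved together. RefSeq (GRCm38.p6) gave a window of 250 bases before to 50 after the gene start for 47 of the 53 members. HNF1 factors, known activators of UGT genes in liver and intestine, bind a palindrome, of which GTTAAT followed by any base and then ATT was searched on both strands. It was found in 4 of these 47 genes (8.51%), Ugt1a1, Ugt1a9, Ugt1a10 and Sult1d1, against 0.470% of all genes in the table (0.399% of all windows). The antioxidant response element bound by NRF2 was searched as TGACNNNGC and found in 3 genes, Gsta3, Gstm5 and Mgst1 (6.38%), against 14.0% of all genes. For 3 further motifs, on both strands, the shares were 6.38% of members and 12.5% of all genes for TTTATNG (CDX factors), 23.4% and 35.2% for GCGTG (the aryl hydrocarbon receptor) and 19.1% and 15.7% for TATAAA (the TATA box). Motifs were chosen with the values known, and a match is a description, not a binding site. The windows below are shown for the genes with the HNF1 letters, for Ugt1a6a and for Gsta3. Capitals mark matches to the HNF1 and NRF2 letters only. Matches to the 3 further motifs, such as GCGTG and TATAAA in Sult1d1, are left in lower case. Ugt1a6a is 1 of the 2 Ugt1 genes with probes in the set highest in the P0 pair.
Ugt1a1 (chr1:88211709-88212008, plus strand): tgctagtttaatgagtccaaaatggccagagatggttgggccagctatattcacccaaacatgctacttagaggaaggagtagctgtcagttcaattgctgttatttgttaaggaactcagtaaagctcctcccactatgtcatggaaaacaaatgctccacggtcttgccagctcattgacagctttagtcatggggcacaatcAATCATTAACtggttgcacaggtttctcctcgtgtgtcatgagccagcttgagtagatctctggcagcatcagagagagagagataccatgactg
Ugt1a9 (chr1:88070529-88070828, plus strand): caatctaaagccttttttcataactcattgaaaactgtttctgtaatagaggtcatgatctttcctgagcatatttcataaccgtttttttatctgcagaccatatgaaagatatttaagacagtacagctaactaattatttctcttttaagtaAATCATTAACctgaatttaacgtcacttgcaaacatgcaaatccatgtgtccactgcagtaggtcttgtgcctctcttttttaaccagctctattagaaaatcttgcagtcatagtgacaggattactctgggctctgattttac
Ugt1a10 (chr1:88055161-88055460, plus strand): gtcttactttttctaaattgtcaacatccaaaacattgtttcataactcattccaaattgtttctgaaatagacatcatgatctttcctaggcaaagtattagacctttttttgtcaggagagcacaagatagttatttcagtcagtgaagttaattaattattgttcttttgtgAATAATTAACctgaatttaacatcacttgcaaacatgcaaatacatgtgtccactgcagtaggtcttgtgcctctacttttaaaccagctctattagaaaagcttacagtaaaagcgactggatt
Sult1d1 (chr5:87568957-87569256, minus strand): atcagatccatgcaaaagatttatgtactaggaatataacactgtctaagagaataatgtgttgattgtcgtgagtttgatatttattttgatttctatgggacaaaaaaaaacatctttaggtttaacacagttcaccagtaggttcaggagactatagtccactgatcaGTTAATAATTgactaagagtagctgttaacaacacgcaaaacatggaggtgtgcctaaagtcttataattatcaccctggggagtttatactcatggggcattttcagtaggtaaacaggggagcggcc
Ugt1a6a (chr1:88134559-88134858, plus strand): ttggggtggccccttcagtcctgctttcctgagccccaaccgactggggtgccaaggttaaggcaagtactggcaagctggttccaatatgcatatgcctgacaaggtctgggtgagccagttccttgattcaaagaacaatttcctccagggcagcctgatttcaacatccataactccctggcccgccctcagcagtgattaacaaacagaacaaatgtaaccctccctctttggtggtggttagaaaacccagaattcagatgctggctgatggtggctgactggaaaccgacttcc
Gsta3 (chr1:21240335-21240634, plus strand): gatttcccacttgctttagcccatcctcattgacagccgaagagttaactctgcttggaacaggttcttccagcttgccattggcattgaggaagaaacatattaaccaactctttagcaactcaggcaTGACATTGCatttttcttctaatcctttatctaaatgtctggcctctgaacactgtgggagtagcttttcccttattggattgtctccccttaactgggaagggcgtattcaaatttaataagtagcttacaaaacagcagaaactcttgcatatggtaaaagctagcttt

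In these windows the HNF1 letters began 45, 95 and 75 bases before the gene start in Ugt1a1, Ugt1a9 and Ugt1a10, on the minus strand, and 79 bases before it in Sult1d1, on the plus strand. The Ugt1a9 and Ugt1a10 windows were 71.2% identical in a global alignment and those of Ugt1a1 and Ugt1a9 52.6%, so matches in these neighbouring genes are not independent. The Ugt1a6a window held neither motif. Nor did the window of Ugt1a5 (not shown), a gene with probes in the same set as probes of Ugt1a1 and Ugt1a9. In Gsta3 the NRF2 letters began 121 bases before the gene start.

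The Ugt2 genes of chromosome 5 make enzymes for steroids, bile acids and fatty acids. Of 8 measured, 8 had a higher ratio in both later pairs than in both E16 pairs, against 25.9% of all genes. Among these 8, Ugt2a1 and Ugt2b37 stayed within the negative control range, with stage differences of only 0.04 and 0.13. Ugt2b5 had the largest stage difference of all 53 members, with -2.09 and -1.99 in the E16 pairs, 1.14 in the E18 pair and 0.32 in the P0 pair (difference 2.78 ± 0.33, SE, limma, adjusted p = 0.0926). Ugt2b34 had -0.94 and -1.14 in the E16 pairs, 0.78 in the E18 pair and 0.02 in the P0 pair. Ugt2b5 and Ugt2b34 thus changed sign between stages, with the P0 pair of Ugt2b34 close to 0.

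Ugt2a3 averaged -0.74 ± 0.72, Ugt2b35 -0.60 ± 0.36 and Ugt2b1 -0.31 ± 0.53 (SD, n = 4), and their stage differences were 0.88, 0.51 and 0.82. Of these, Ugt2b35 was below 0 in all 4 pairs, from -0.90 to -0.10. Ugt2b38 averaged 0.05, and its ratios ran from -0.11 to 0.35. Ugt2a1 and Ugt2b37, with the 2 Ugt3 genes, lay within the range of the negative control probes in all 4 pairs. In all, 12 of the 53 members lay in that range, against 48.5% of all genes, and for those a ratio near 0 may reflect a probe without signal, since no intensities were used here.

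The alpha class GST genes had the highest class medians in both later pairs, 2.27 in the E18 pair and 1.83 in the P0 pair. Gsta4, whose enzyme clears hydroxynonenal, a product of lipid peroxidation, had ratios of 1.34 and 0.90 in the E16 pairs, 2.48 in the E18 pair and 2.87 in the P0 pair. Gsta3, which in mice inactivates the aflatoxin epoxide, had 1.02 and 1.11 in the E16 pairs, 2.49 in the E18 pair and 2.62 in the P0 pair. Both were above 0 in 4 of 4 pairs, with both later pairs above both E16 pairs. They averaged 1.90 ± 0.93 (3.72-fold) and 1.81 ± 0.86 (3.50-fold, SD, n = 4), and neither passed in limma, at adjusted p = 0.0964 for Gsta4 and 0.0910 for Gsta3. For Gsta3 the stage difference of 1.49 ± 0.079 (SE) had the smallest adjusted p among members, 0.0834.

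Gsta1 and Gsta2, near-identical genes whose probes may read each other, are classical targets of NRF2. Gsta1 had ratios of -0.92 and -0.95 in the E16 pairs, 1.99 in the E18 pair and 1.05 in the P0 pair. Gsta2 had -0.77 and -0.75 in the E16 pairs, 2.06 in the E18 pair and 0.97 in the P0 pair. The stage difference was 2.46 ± 0.37 and 2.27 ± 0.43 (SE), and the mean over all pairs was close to 0 beside its spread (0.29 ± 1.47 and 0.38 ± 1.38, SD, n = 4). The class therefore fell into a pair of genes above 0 at every stage and a pair that changed sign.

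The mu class genes form a cluster on chromosome 3 and resemble each other closely, so cross-hybridisation cannot be set aside. Of 6 measured, 6 had a higher ratio in both later pairs than in both E16 pairs, against 25.9% of all genes. Gstm4 had ratios of -1.26 and -1.23 in the E16 pairs, 1.56 in the E18 pair and 0.52 in the P0 pair, and Gstm6 had -1.30 and -1.23 in the E16 pairs, 1.12 in the E18 pair and 0.40 in the P0 pair. Gstm1 had -0.86 and -0.64 in the E16 pairs, 0.90 in the E18 pair and 0.66 in the P0 pair, with a difference of 1.53 ± 0.14 (SE, limma, adjusted p = 0.0923). Its 2 probes differed, since 1 ran from -1.41 in the first E16 pair to 1.55 in the P0 pair and the other stayed between -0.31 and 0.31.

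Gstm2 was nearer 0 at E16, with -0.06 and -0.26 in the E16 pairs, 1.08 in the E18 pair and 0.76 in the P0 pair. Gstm3 had -1.67 and -1.68 in the E16 pairs, 0.91 in the E18 pair and -0.64 in the P0 pair, so that the E18 pair alone was above 0. Gstm5 was below 0 in all 4 pairs, from -0.96 to -0.39, with a mean of -0.73 ± 0.25 (SD, n = 4) that missed the threshold (limma, adjusted p = 0.0523).

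Gstt1, a theta class enzyme that acts on small halogenated compounds, was the only member to pass the test over the 4 pairs, 1 of 53 against 4.36% of all genes in either direction. It was 2.35-fold lower in spheroids, with ratios of -1.44 and -1.60 in the E16 pairs, -1.02 in the E18 pair and -0.87 in the P0 pair, and averaged -1.23 ± 0.34 (SD, n = 4, limma, adjusted p = 0.0367). It was below 0 in 4 of 4 pairs. The call was lost without any 1 pair, since the adjusted p became 0.190 when the first E16 animal was left out, 0.130 for the second, 0.0628 for the E18 animal and 0.0785 for the P0 animal.

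The other theta genes differed from it and from each other. Gstt3 had -0.53 and -0.36 in the E16 pairs, 0.42 in the E18 pair and 0.98 in the P0 pair. Gstt2 lay at 0 at E16, with -0.05 and -0.001, and ran opposite ways later, with -1.42 in the E18 pair and 1.20 in the P0 pair. Gstt4 lay between -0.03 and -0.01 in all pairs, within the range of the negative control probes.

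Omega class enzymes transfer thiols and reduce dehydroascorbate, the oxidised form of vitamin C. Gsto1 had ratios of 0.24 and 0.77 in the E16 pairs, 1.53 in the E18 pair and 2.25 in the P0 pair. Gsto2 had 0.78 and 0.84 in the E16 pairs, 1.33 in the E18 pair and 2.09 in the P0 pair. Both were above 0 in 4 of 4 pairs and highest in the P0 pair. They averaged 1.20 ± 0.88 and 1.26 ± 0.61 (SD, n = 4), and neither passed (limma, adjusted p = 0.189 and 0.0929).

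Gstz1, the zeta class enzyme of tyrosine breakdown, ran the other way and was below 0 in 4 of 4 pairs, with a mean of -0.72 ± 0.30 (SD, n = 4, limma, adjusted p = 0.0754). Gstk1 was -0.37 and -0.35 in the E16 pairs, -0.53 in the E18 pair and 0.60 in the P0 pair. Gstp1, of the pi class, had -0.25 and -0.02 in the E16 pairs, 0.82 in the E18 pair and 0.30 in the P0 pair, a stage difference of 0.70 ± 0.23 (SE, limma, adjusted p = 0.257). Gstp3 lay within the range of the negative control probes.

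Of the 3 MGST genes, 3 had a higher ratio in both later pairs than in both E16 pairs, against 25.9% of all genes. Mgst2, which can make leukotrienes, had -1.15 and -0.59 in the E16 pairs, 1.78 in the E18 pair and 1.19 in the P0 pair. Mgst3 had -1.11 and -0.86 in the E16 pairs, 0.39 in the E18 pair and 0.28 in the P0 pair, a difference of 1.32 ± 0.12 (SE, limma, adjusted p = 0.0923). Mgst1, an enzyme of the endoplasmic reticulum and mitochondria, had -1.64 and -1.62 in the E16 pairs, 0.55 in the E18 pair and -1.0 in the P0 pair. The E18 pair was thus above 0 in all 3 genes and the P0 pair in Mgst2 and Mgst3.

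Of 12 sulfotransferase genes, 6 lay within the range of the negative control probes in all 4 pairs (Sult1c1, Sult1e1, Sult2a2, Sult2a8, Sult3a1 and Sult5a1). Both later pairs lay above both E16 pairs in 4 genes, against 25.9% of all genes, and below them in 2, Sult1a1 and Sult4a1, against 24.8%, so neither count stood far from that of all genes. Of the 4 genes above, Sult1c1 and Sult5a1 lay in the negative control range. The family's median difference was 0.04, against 1.15 for the UGT genes, 1.11 for the cytosolic GST genes and 0.0022 for all genes. These medians are not alike in content, since 4 of 18 UGT and 2 of 20 cytosolic GST genes lay in that range, against 6 of 12 here. The SULT genes outside it had differences from -0.44 (Sult4a1) to 2.05 (Sult1d1).

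Sult1d1, which in mice sulfates catecholamines, had -1.55 and -1.18 in the E16 pairs, 1.13 in the E18 pair and 0.23 in the P0 pair, a difference of 2.05 ± 0.38 (SE). Sult1b1, an enzyme for thyroid hormones and phenols, had -1.80 and -1.09 in the E16 pairs, 0.89 in the E18 pair and -1.12 in the P0 pair. In Sult1b1 the P0 pair lay with the E16 pairs, and the E18 pair stood apart. Sult2b1, which sulfates cholesterol, had a ratio of 1.08 in the E18 pair, while the other 3 ran from -0.51 to -0.0038.

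Sult1c2 was above 0 in 4 of 4 pairs and averaged 0.91 ± 0.73 (SD, n = 4, limma, adjusted p = 0.223), from 0.18 in the second E16 pair to 1.86 in the P0 pair. Sult4a1, known from brain, averaged 0.42 ± 0.31 (SD, n = 4), with 0.87 and 0.42 in the E16 pairs, 0.18 in the E18 pair and 0.23 in the P0 pair. Sult1a1, the main phenol sulfotransferase, had -0.04 and -0.11 in the E16 pairs, -0.33 in the E18 pair and -0.41 in the P0 pair.

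Over the 4 pairs, 11 members had an unadjusted p under 0.05 in limma, 6 with a ratio above 0 and 5 below, against 20.9% of all genes. Those above 0 were Gsta3, Gsta4, Gsto1, Gsto2, Sult1c2 and Sult4a1, and those below 0 were Gstt1, Gstm5, Gstz1, Ugt2b35 and Sult1a1. At an adjusted p under 0.1 there were 6 members against 9.13% of all genes, of which 3 (Gsta3, Gsta4 and Gsto2) lay above 0, against 5.81% of all genes, and 3 (Gstt1, Gstm5 and Gstz1) below 0, against 3.32%. The mean was at least 1 in size in 6 members, against 3.78% of all genes, and of these Gstt1 alone was negative. The members' median of the mean ratio was -0.03, against -0.0032 for all genes. Pairs of opposite sign at E16 and later cancel in that mean, as in Ugt1a7c at -0.15 ± 1.26 and Gstm1 at 0.02 ± 0.89 (SD, n = 4).

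Genes that supply the donors ran with the UGT genes in part. Ugdh, which makes UDP-glucuronic acid, the sugar donor of all UGTs, had ratios of -1.04 and -0.75 in the E16 pairs, 1.29 in the E18 pair and 1.11 in the P0 pair, a difference of 2.09 (limma, adjusted p = 0.0915). Ugp2, the step before it, had -0.29 and -0.39 in the E16 pairs, 0.48 in the E18 pair and 0.34 in the P0 pair. Gclm, a subunit of the enzyme that limits glutathione synthesis, had 0.02 and -0.06 in the E16 pairs, 1.15 in the E18 pair and 1.41 in the P0 pair. The sulfate transporter Slc26a2 had -0.09 and -0.33 in the E16 pairs, 0.77 in the E18 pair and 1.02 in the P0 pair. In 13 of the 19 supply genes measured both later pairs lay above both E16 pairs, against 25.9% of all genes. Over the 4 pairs 1 passed higher, the glutathione peroxidase Gpx2 at 2.19 ± 0.73 (SD, n = 4, limma, adjusted p = 0.0473), and 0 lower, against 3.02% and 1.34% of all genes.

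In the list of the NRF2 system and its targets, 20 genes were measured, the median was 0.34, and 3 passed higher and 0 lower, against 3.02% and 1.34% of all genes. These were the aldo-keto reductase Akr1b8 at 2.84 ± 0.92, the thioredoxin reductase Txnrd1 at 0.52 ± 0.16 and the exporter Abcc1 at 0.29 ± 0.083 (SD, n = 4, limma, adjusted p from 0.0456 to 0.0468). Akr1b8 had 2.17 and 1.93 in the E16 pairs, 3.54 in the E18 pair and 3.72 in the P0 pair. The malic enzyme Me1 had 0.42 and -0.15 in the E16 pairs, 2.12 in the E18 pair and 2.42 in the P0 pair, and the epoxide hydrolase Ephx1 0.44 and 0.23, 1.73 and 1.50 in the same order. Taldo1, an enzyme of the pentose phosphate pathway, was below 0 in 4 of 4 pairs at -0.27 ± 0.092 (SD, n = 4) and did not pass. Both later pairs lay above both E16 pairs in 12 of the 20, against 25.9% of all genes.

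Regulators of drug and enterocyte genes had a median of -0.41 over 15 genes, with 0 passing higher and 2 lower, against 3.02% and 1.34% of all genes. Vdr, the receptor for vitamin D, averaged -1.60 ± 0.39, and Cdx1, a homeobox factor of the intestine, -1.74 ± 0.47 (SD, n = 4). The bile acid receptor Nr1h4, which missed the threshold, had -1.64 and -1.61 in the E16 pairs, -0.28 in the E18 pair and -1.37 in the P0 pair. Pparg, a fatty acid receptor, was above 0 in 4 of 4 pairs, with 0.42 and 0.26 in the E16 pairs, 0.94 in the E18 pair and 0.68 in the P0 pair (limma, adjusted p = 0.106). Ahrr, the repressor of the aryl hydrocarbon receptor, was also above 0 in each, with 0.47 and 0.46 in the E16 pairs, 0.20 in the E18 pair and 0.11 in the P0 pair. Gata6, a factor of gut epithelium, was below 0 in each, with -0.74 and -0.79 in the E16 pairs, -0.29 in the E18 pair and -0.22 in the P0 pair. Both later pairs lay above both E16 pairs in 12 of the 15, against 25.9% of all genes.

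Among 9 exporters, 2 passed higher and 0 lower, against 3.02% and 1.34% of all genes. They were Abcb1b, a drug efflux pump, at 1.88 ± 0.38 (SD, n = 4, limma, adjusted p = 0.0229) and Abcc1. Abcb1a was below 0 in all 4 pairs and did not pass, with -1.01 and -0.62 in the E16 pairs, -0.22 in the E18 pair and -0.07 in the P0 pair. Abcc2, which carries glucuronide and glutathione conjugates across the apical membrane, had -1.35 and -1.43 in the E16 pairs, 0.69 in the E18 pair and -0.18 in the P0 pair, while Abcc6 had -1.32 and -1.47, -0.23 and -0.68 in the same order. Of those that did not pass, Abcc5 averaged 0.88 ± 0.37 and Slc51b, a bile acid exporter subunit, -1.45 ± 0.65 (SD, n = 4). The exporters' median was 0.23 in the E18 pair and -0.18 in the P0 pair, against -1.30 and -1.15 in the E16 pairs. Of 13 other conjugating enzymes and hydrolases, 1 passed higher, the glucuronidase Gusb, which removes glucuronic acid in lysosomes, at 1.00 ± 0.29, and 1 lower, the arsenite methyltransferase As3mt at -0.86 ± 0.079 (SD, n = 4, limma, adjusted p = 0.0399 and 0.0112), again against 3.02% and 1.34% of all genes. In As3mt the 4 pairs lay between -0.97 and -0.80, with no order by stage. Both later pairs lay above both E16 pairs in 6 of the 9 exporters and in 5 of these 13 genes, against 25.9% of all genes. They lay below in 0 of the 9 and 2 of the 13, against 24.8%. The median stage difference of the 13 genes was 0.04.

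**Figure D4:**
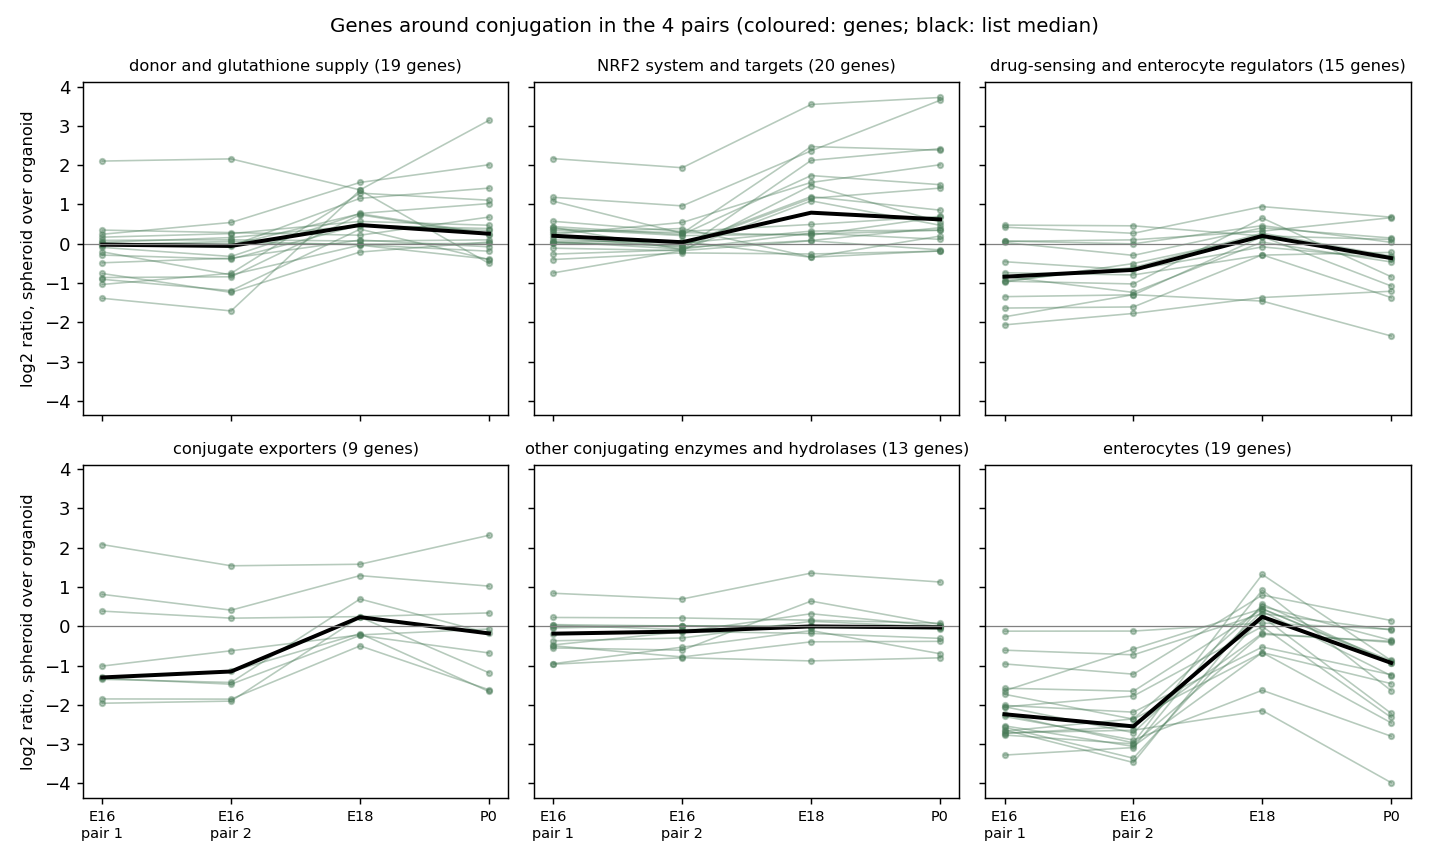
Log2 ratio of spheroid over organoid (vertical axis) in the 4 pairs (horizontal axis) for 5 lists of genes around conjugation and for enterocyte markers; coloured lines are genes, black lines list medians, and lines join values of different animals. The enterocyte median was 0.24 in the E18 pair and -0.93 in the P0 pair, against -2.24 and -2.55 in the E16 pairs.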

How the data were processed

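Per the labels' protocols, amplified RNA from both cultures of an animal shared an array of 70-base probes, labelled in Cy3 and Cy5 with the dyes swapped. The deposited table holds what are read here as log2 ratios of 38083 probes in the 4 pairs, with column medians between -0.0055 and -0.001. Neither the log base, the numerator, the background correction nor the normalization is given in the sources used here. The platform's annotation in GEO, possibly outdated, named 1 gene for 22941 probes and several for 0, and 15142 are unnamed here. The 22305 named probes with the mM prefix were averaged to 15123 genes, with symbols from RefSeq (GRCm38.p6). A member or gene counts as within the negative control range when all 4 ratios lie between -0.36 and 0.20, the extremes of 94 negative control probes.

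Tests were two-sided in limma 3.58.1 (R 4.3.3, lmFit and eBayes), checked on simulated ratios, adjusted by Benjamini-Hochberg across the 15123 genes and called at 0.05. The mean of the 4 pairs was set against 0, with 3 residual degrees of freedom, and the mean of the later pairs against that of the E16 pairs, with 2. Precision is limited by having 4 pairs, and spot brightness is unknown. Per-pair values are given for members past the threshold or with a mean or stage difference of at least 1 in size, and for the few others a sentence needs, chosen after their values were seen. From each pathway list up to 4 genes with the largest moderated t in either test were named. Members and lists were chosen with earlier results of these data known. Alternatives were another scaling, 1 probe per gene, all named probes, a robust prior, array weights, averaging the 3 stages equally, other thresholds, leaving out each pair and, added after seeing the data, leaving out the Ugt1 genes.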

Additional observations from a re-analysis of the deposited data

Results flagged for a closer look

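Gstk1 was the 1 member of 53 in which a single pair lay far from the others, by a criterion (Dixon's) that chance meets in about 1 of 20 genes. The P0 ratio was 0.60, while the other 3 ran from -0.53 to -0.35, a gap of 0.843 of the whole range.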

How the results depend on the processing

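The number of members past the threshold over the 4 pairs was 1 as reported, 2 with columns scaled to the same median absolute deviation, 4 with array weights, 25 with a mean of the 3 stage means, 6 at an adjusted p under 0.1, and 0 to 2 when 1 pair was left out. In the fit with stage means the spread came from the 2 E16 pairs alone, and Gstm4 then passed at 0.28, against -0.10 as reported. Without the E18 pair the 2 were Gstm5 and Ugt2b35 (adjusted p = 0.0377 and 0.0460), and Gstt1 did not pass. Over all 15123 genes the count was 660 as reported, 704 with the scaled columns and 1417 with array weights. With a mean of the 3 stage means it was 3763, so many genes outside the 53 members were called as well. At an adjusted p under 0.1 it was 1381, and it was 0 to 740 when 1 pair was left out. For the stage difference the number was 0 as reported, 8 at an adjusted p under 0.1, and 0 to 27 when 1 pair was left out, with 443 of all genes without the E18 pair and 1544 without the P0 pair. In those fits a lone pair was taken to vary like the others. Gstt2 had a stage difference of -0.09 as reported and between -1.40 and 1.23 when 1 pair was left out. The stage difference kept its sign in 43 of 53 members under all 8 alternatives, and the mean ratio in 34 of 53 under all 10. Array weights were not run for the stage difference, as planned. The ratios give no signal over background, so a probe without signal cannot be told from equal levels.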
